A study of Mus musculus with 6 samples.

Results

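The Iroquois genes Irx1 to Irx6 and the muscle segment homeobox genes Msx1 and Msx2 encode DNA-binding homeodomain proteins. They were followed in the mesenchyme and the urothelium of the embryonic mouse bladder. Every probe set whose only annotated gene symbol was one of these names was taken, which gave 10 probe sets for 8 genes among 18193 genes measured. Each Irx gene had 1 probe set, and Msx1 and Msx2 had 2 each.

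Bladders came from wild-type embryos of the FVB/N mouse strain, taken at day 13 of development (Theiler stage 21). Their sex is unknown and samples were not pooled, per the labels. The bladder was cut off above the ureters and kept for 20 minutes in 20 µM EDTA, a chelator under which the lining comes away from its surroundings, and the layers were parted with a needle. There were 3 arrays of mesenchyme, the future connective tissue and muscle coat (numbered 1, 2 and 4 in the labels), and 3 arrays of urothelium, the lining epithelium (numbered 5, 7 and 8). RNA was amplified in 2 rounds before hybridisation to Affymetrix MOE430 arrays. The labels do not say whether the arrays came from separate embryos, so p-values measure the spread between these arrays, which can be technical.

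Iroquois proteins belong to the TALE class of homeodomain proteins, which carry an extended loop inside the homeodomain. In the mouse their genes lie in a pair of clusters, with Irx1, Irx2 and Irx4 in the IrxA cluster and Irx3, Irx5 and Irx6 in the IrxB cluster, and they are known for dividing the neural tube, heart and limb into territories. Msx proteins are transcriptional repressors of the NK-like class and well-known targets of BMP signalling where an epithelium and a mesenchyme exchange signals, as in the tooth, the hair follicle and the limb bud.

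The stretch around the transcription start of Msx1, Msx2 and Irx2 is shown because the clearest contrasts below concern these genes. Each runs from 250 bases before to 50 bases after the start, 5′ to 3′ on the gene's own strand, from RefSeq's GRCm38.p6 annotation. Capitals mark CCAAT boxes, a common promoter element, and TAATTA, a core sequence that homeodomain proteins can bind, searched on both strands.
Msx1, chr5:37824536-37824835, minus strand: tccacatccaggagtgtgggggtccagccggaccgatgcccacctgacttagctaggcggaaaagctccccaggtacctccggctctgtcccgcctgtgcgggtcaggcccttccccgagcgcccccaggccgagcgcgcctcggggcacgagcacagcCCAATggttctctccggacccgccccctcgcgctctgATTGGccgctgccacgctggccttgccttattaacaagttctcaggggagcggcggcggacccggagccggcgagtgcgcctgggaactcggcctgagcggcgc
Msx2, chr13:53472731-53473030, minus strand: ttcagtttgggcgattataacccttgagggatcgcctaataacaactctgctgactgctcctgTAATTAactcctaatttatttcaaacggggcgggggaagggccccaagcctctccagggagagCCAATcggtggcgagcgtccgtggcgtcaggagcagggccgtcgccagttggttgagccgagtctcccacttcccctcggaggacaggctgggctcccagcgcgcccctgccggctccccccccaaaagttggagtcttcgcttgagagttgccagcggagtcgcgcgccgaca
Irx2, chr13:72628570-72628869, plus strand: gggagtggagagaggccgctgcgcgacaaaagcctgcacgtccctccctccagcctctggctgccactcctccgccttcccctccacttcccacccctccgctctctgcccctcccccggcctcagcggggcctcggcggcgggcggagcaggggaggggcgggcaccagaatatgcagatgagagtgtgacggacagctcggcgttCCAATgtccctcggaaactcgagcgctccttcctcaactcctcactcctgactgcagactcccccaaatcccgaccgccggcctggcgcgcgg
CCAAT was found at 2 places for Msx1, 1 for Msx2 and 1 for Irx2, and 37.4% of all 32851 promoter windows of this length hold it. The windows of Irx3 and Irx4 held none, so 3 of the 5 windows at hand had it. TAATTA was found once, for Msx2, and 5.29% of all windows hold it. The marked letters do not overlap each other and are a description of these windows, with no statement about any factor. Also searched were TATAAA, found in none of the 5 windows, GGCGCC, found for Irx4, and GGGCGG, found for Msx1, Msx2, Irx2 and Irx4, which 13.6%, 11.9% and 35.7% of all windows hold.

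The compartments carried their own markers. Of 14 epithelial markers, 13 were higher in urothelium by the test described below, the exception being Krt5, and 13 of 13 mesenchymal markers were higher in mesenchyme. Summed epithelial marker signal was 10986 to 14553 in mesenchyme, against 517344 to 597957 in urothelium, and summed mesenchymal marker signal was 348566 to 398131 in mesenchyme, against 15774 to 17869 in urothelium. The mesenchyme arrays also held smooth muscle (6 of 7 markers higher), endothelial (8 of 8) and macrophage markers (6 of 7). Red cell markers were higher there for 3 of 5, but their summed signal overlapped, at 69256 to 88040 in mesenchyme and 56789 to 103546 in urothelium. Mesothelial markers were split, with 4 of 7 higher in mesenchyme and 2 in urothelium. Their summed signal was 8746 to 25633 in mesenchyme, against 31778 to 52836 in urothelium. Most of the urothelium sum was the keratin gene Krt19, which is also in the epithelial list. Krt19 alone read 1030 to 1990 in mesenchyme, against 25319 to 39218 in urothelium, so these sums do not show more mesothelial signal in urothelium. Of 6 neural crest and glial markers 1 was higher in mesenchyme (Fabp7) and 2 in urothelium (Erbb3 and Ret). The sum of all 6 was 1230 to 2447 in mesenchyme, against 24498 to 30112 in urothelium. Nearly all of the urothelium sum was Erbb3 and Ret, with means of 23951 and 3536 there, so it does not give the level of the whole list. Sox10, a defining gene of that lineage, had a limma adjusted p of 0.874. Shh, the hedgehog ligand gene of the urothelium, averaged 265 ± 53.9 in mesenchyme and 85468 ± 18394 in urothelium (−8.10 ± 0.28). The part of these other cells in the values below was not tested. In such bulk samples fewer cells of a type and less RNA per cell cannot be told apart.

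Msx2 was the only 1 of the 8 genes past the test, and it was higher in urothelium. Differences are given as mesenchyme minus urothelium on the log2(signal + 45) scale, so a value below 0 means higher in urothelium, and this scale understates differences of dim probe sets. A gene passed when its limma p, adjusted by Benjamini and Hochberg over all 18193 genes, was under 0.05. Past the test were 14.7% of all genes, 8.91% higher in mesenchyme and 5.80% higher in urothelium, so 1 gene of 8 is near the share among all genes and says nothing about the family as a group. No member was higher in mesenchyme by limma's test. At an unadjusted p under 0.05 there was 1 in mesenchyme (Msx1) and there were 2 in urothelium (Msx2 and Irx2), where 24.98% of all genes had such a p in either direction. The median difference of the 8 genes was −0.09, beside 0.11 for all genes.

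**Figure D1:**
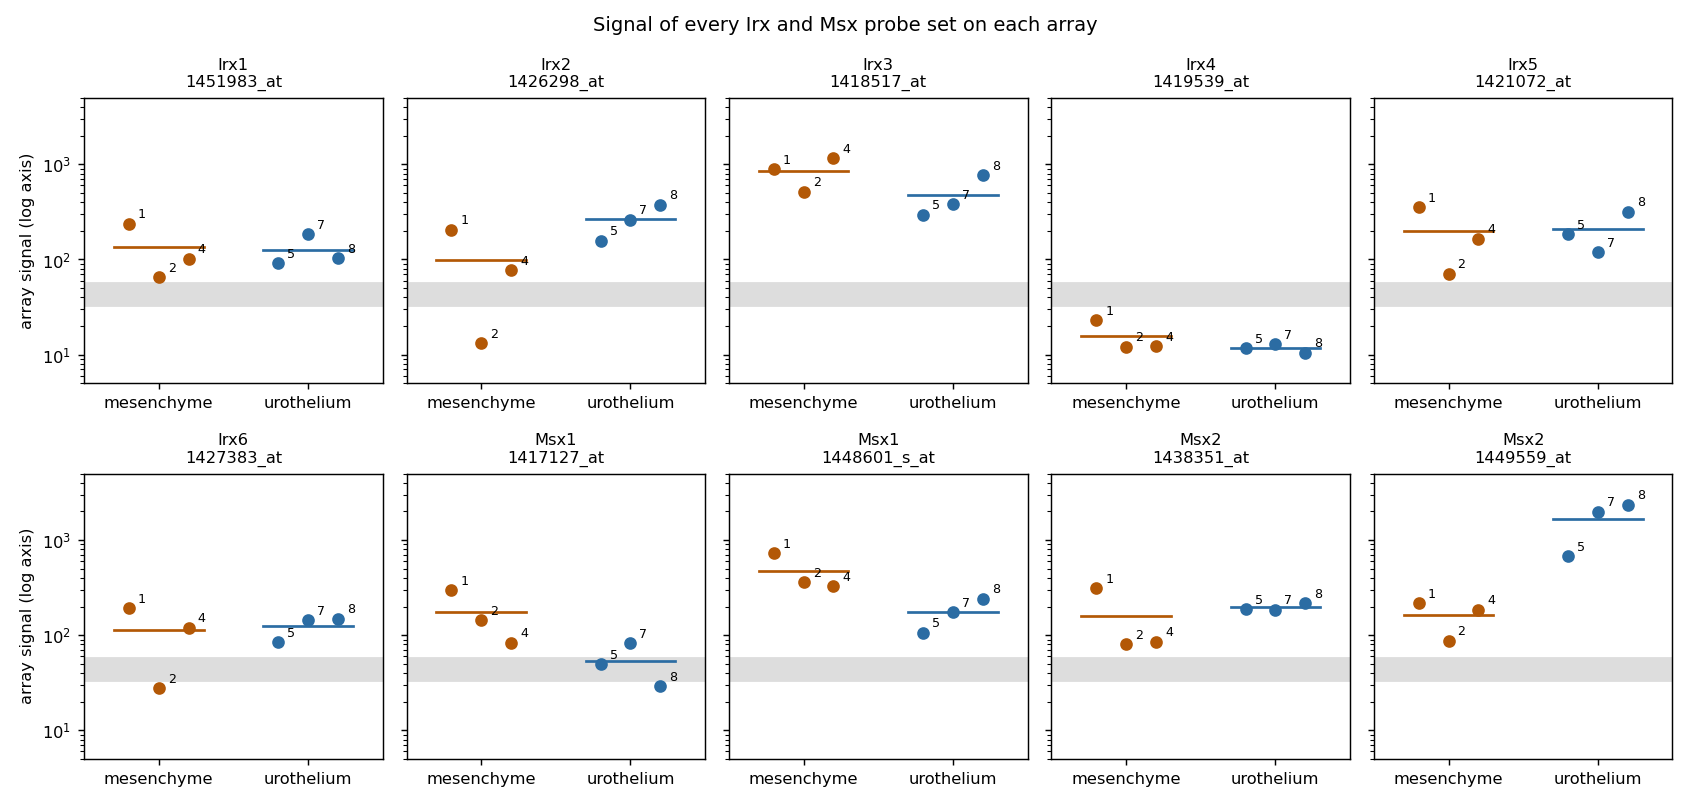
Signal of each of the 10 Irx and Msx probe sets on each array (log axis), with mesenchyme arrays 1, 2 and 4 at the left and urothelium arrays 5, 7 and 8 at the right of each panel. Points are arrays with their label number, bars are compartment means, and the grey band spans the 25th percentile of signal on the 6 arrays (32.8 to 57.2). The Msx2 probe set 1449559_at is the one with a wide gap between compartments.

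Msx2, which encodes a homeodomain repressor active in skull, tooth and skin development, was read by probe set 1449559_at at 218, 87.3 and 186 in mesenchyme arrays 1, 2 and 4, against 675, 1989 and 2362 in urothelium arrays 5, 7 and 8. The groups did not overlap, and the lowest urothelium array stood 3.09-fold above the highest mesenchyme array. Urothelium 5 was well below the other urothelium arrays. Mean signals were 164 ± 68.2 in mesenchyme and 1675 ± 886 in urothelium (SD, n = 3 each). The difference was −2.93 ± 0.52 (SE; 95% interval −4.08 to −1.77), or 7.60-fold higher in urothelium, with a limma adjusted p of 0.00285. Msx2 stayed past the test in all 14 alternatives that gave it a value, at −3.66 to −1.67. Each of them used this probe set, by itself or averaged with the other Msx2 probe set.

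The other Msx2 probe set, 1438351_at, gave another picture. It read 313, 80.3 and 85.6 in mesenchyme, against 189, 185 and 218 in urothelium. Mesenchyme 1 lay above all urothelium arrays and the other mesenchyme arrays lay below them, so the groups overlapped. In the fit of every probe set by itself, 7.34% of 45037 probe sets passed, 4.46% higher in mesenchyme and 2.88% higher in urothelium, and 1 of the 10 member probe sets did. There its difference was −0.42 ± 0.52 (limma adjusted p = 0.769), against −2.93 ± 0.52 for 1449559_at (limma adjusted p = 0.00511). The platform annotation bases 1449559_at on a RefSeq transcript and 1438351_at on an entry outside RefSeq. The within-array log2 ratio of 1449559_at over 1438351_at was −0.44, 0.08 and 0.82 in mesenchyme, against 1.62, 3.15 and 3.19 in urothelium. The ratios did not overlap (difference −2.50, two-sided exact permutation p = 0.1, the smallest that 3 against 3 arrays allow, and 0.133 adjusted over the 4 pairs compared). This pair was chosen after the values were seen, and the adjustment does not cover that choice. The call of Msx2 rests on 1 of its 2 probe sets. Their mean signals were close in mesenchyme (164 for 1449559_at, 160 for 1438351_at) and far apart in urothelium (1675 and 197). A gene was read by its probe set of highest mean over all arrays. The choice of 1449559_at thus came mostly from its urothelium signal and was not independent of the contrast. With the mean of both probe sets on the log2 scale the difference was −1.67 (limma adjusted p = 0.0249).

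Msx1, the repressor whose loss arrests tooth growth and clefts the palate in mice, lay the other way. Probe set 1448601_s_at read 726, 359 and 329 in mesenchyme, against 106, 175 and 243 in urothelium. All mesenchyme arrays were above all urothelium arrays. The difference was 1.20 ± 0.46 (95% interval 0.18 to 2.22), a 2.30-fold higher level in mesenchyme, but it was not past the test (limma adjusted p = 0.123). The other Msx1 probe set, 1417127_at, read 298, 143 and 83.7 in mesenchyme, against 49.2, 81.9 and 29.1 in urothelium. It did not overlap either, though by a narrow gap, since mesenchyme 4 was 1.02-fold above urothelium 7. Its difference was 1.08 ± 0.49 (limma adjusted p = 0.281, each probe set by itself). Neither probe set passed under any alternative.

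Non-overlapping arrays were found for 2 of the 8 genes, 1 in each direction, where 30.1% of all genes had them (18.1% higher in mesenchyme, 12.0% higher in urothelium). They were found for 3 of the 10 probe sets, where 23.1% of all probe sets had them (13.4% higher in mesenchyme, 9.68% higher in urothelium). Within arrays, the log2 ratio of Msx1 (1448601_s_at) over Msx2 (1449559_at) was 1.55, 1.61 and 0.70 in mesenchyme, against −2.25, −3.21 and −3.06 in urothelium. The ratio was thus positive on every mesenchyme array and negative on every urothelium array. The difference in ratio was 4.13 (two-sided exact permutation p = 0.1, the smallest possible, and 0.133 adjusted over 4 pairs). These 4 pairs were chosen after the values were seen. Levels of different probe sets are not on a common scale, so the sign of a ratio does not say which gene was more abundant.

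**Figure D2:**
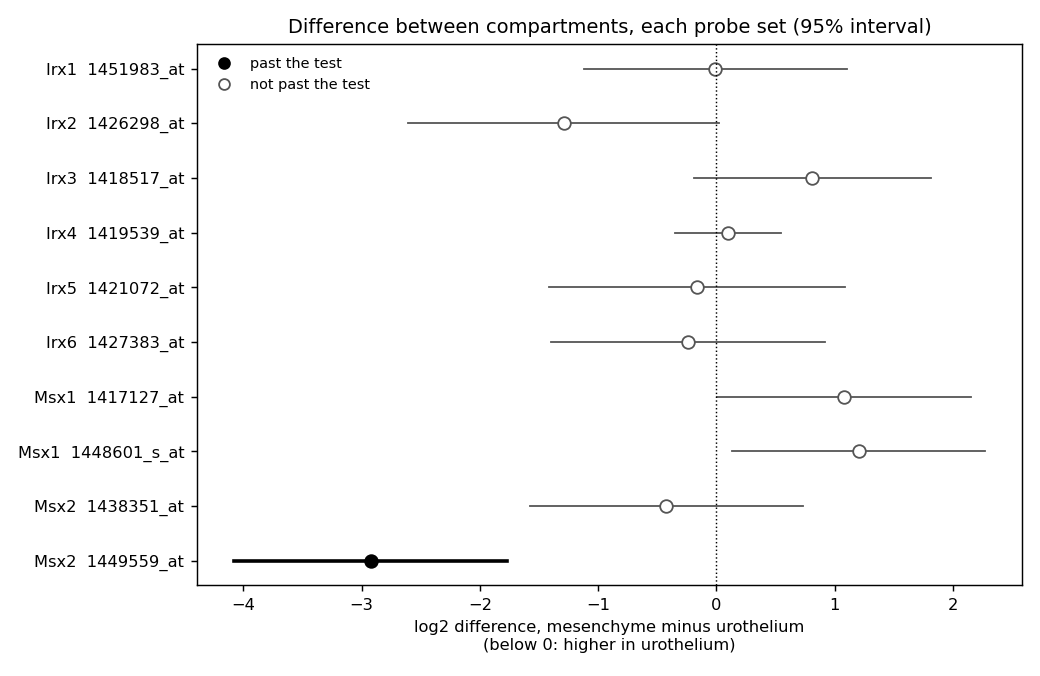
Log2 difference, mesenchyme minus urothelium, of each of the 10 probe sets in the fit of every probe set by itself, with its 95% interval, which is not adjusted for the number of tests. The filled point is past the test. Msx2 1449559_at lies at −2.93 with an interval from −4.08 to −1.77, and the open points are not past the test.

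In the IrxA cluster, Irx2 was the gene with the largest difference and it did not pass. Irx2 read 206, 13.1 and 77.5 in mesenchyme, against 157, 262 and 377 in urothelium. The urothelium arrays were above mesenchyme 2 and 4, while mesenchyme 1 lay between urothelium 5 and urothelium 7. The value of 13.1 on mesenchyme 2 lay at the 11.1th percentile of its array, among the dimmest probe sets and near the signals of Irx4 below, so no fold is given for the spread of the mesenchyme arrays. The difference was −1.29 ± 0.56 (95% interval −2.52 to −0.06), and the limma adjusted p was 0.175. In the fit of every probe set by itself the interval was −2.61 to 0.03, which includes 0 (limma adjusted p = 0.292). Without mesenchyme 1 the difference by gene was −1.82 (adjusted p = 0.0360). It was −2.09 without mesenchyme 1 and urothelium 5 (adjusted p = 0.0204), and −1.77 with array weights (adjusted p = 0.00558). In these 3 settings Irx2 passed as higher in urothelium and 2 members passed in place of 1. With each probe set fitted by itself a second one passed with array weights only. It did not pass without mesenchyme 1, nor without mesenchyme 1 and urothelium 5. Without mesenchyme 2 the difference was −0.76 (adjusted p = 0.514).

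The 3′ to 5′ signal ratio of beta-actin, which grows as RNA or its copies get shorter, was 8.40 on mesenchyme 1 and 8.60 on urothelium 5, while the remaining arrays had 2.29 to 4.89. Mesenchyme 1 also had the highest median signal, 240, against 161 to 183 on the other mesenchyme arrays. It was the highest mesenchyme array for 9 of the 10 member probe sets, as it was for 49.3% of all probe sets. Mesenchyme 2 was the lowest mesenchyme array for 8 of the 10, as it was for 31.8% of all probe sets. Urothelium 5 had the lowest median signal, 132, against 172 and 192 on the other urothelium arrays. It was the lowest urothelium array for 6 of the 10 member probe sets, as it was for 48.7% of all probe sets. The part of RNA quality in the spread of the Irx2 and Msx2 values was not tested.

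Irx1, also of the IrxA cluster and known from heart, limb and lung development, read 239, 65.1 and 102 in mesenchyme, against 91.05, 186 and 104 in urothelium. The ranges overlapped over most of their width and the difference was −0.01 ± 0.46 (95% interval −1.02 to 0.997, limma adjusted p = 0.994). Irx4, the ventricular myocardium gene of the family, read 22.9, 12.1 and 12.3 in mesenchyme, against 11.6, 12.9 and 10.4 in urothelium. All of these lie under the 25th percentile of signal on their arrays, between the 8.08th and 12.9th percentile over all probe sets. The difference was 0.10 ± 0.24 (adjusted p = 0.863), and at so low a signal a difference between compartments is not detectable here. Without detection calls, such a signal does not show that the gene is off.

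In the IrxB cluster, Irx3, which acts with Irx5 in heart rhythm and limb patterning in mice, read 896, 516 and 1169 in mesenchyme, against 296, 384 and 765 in urothelium. Its signal lay between the 62.8th and 74.3rd percentile of the arrays. Mesenchyme 1 and 4 were above all urothelium arrays, and mesenchyme 2 was below urothelium 8. The difference was 0.81 ± 0.46 (95% interval −0.21 to 1.83, limma adjusted p = 0.328), and it was positive in all 15 alternatives, from 0.49 to 1.17, without passing in any. The interval includes 0, so a difference in either direction is possible.

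Irx5 read 355, 71.1 and 166 in mesenchyme, against 185, 119 and 319 in urothelium, and the mesenchyme values spanned the urothelium values entirely. Its difference was −0.16 ± 0.53 (95% interval −1.33 to 1.01, adjusted p = 0.902). Irx6, known from retinal bipolar cells in the mouse, read 193, 27.5 and 120 in mesenchyme, against 84.3, 144 and 148 in urothelium. Its difference was −0.24 ± 0.48 (95% interval −1.30 to 0.82, adjusted p = 0.825). For both genes the lowest array was mesenchyme 2 and the highest mesenchyme 1. Leaving out mesenchyme 2 turned the sign of each, to 0.28 for Irx5 and 0.24 for Irx6, neither past the test. Both intervals pass −1, a 2-fold higher level in urothelium, so the data do not show equal levels.

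The clusters gave no common direction. In IrxA the estimates were −1.29 (Irx2), −0.01 (Irx1) and 0.10 (Irx4), and in IrxB 0.81 (Irx3), −0.16 (Irx5) and −0.24 (Irx6). The lowest and the highest of these, Irx2 and Irx3, were compared within arrays, a pair chosen after the values were seen. The within-array log2 ratio of Irx3 over Irx2 was 1.90, 3.27 and 3.31 in mesenchyme, against 0.76, 0.48 and 0.94 in urothelium. The ratio was higher on every mesenchyme array (difference 2.10, two-sided exact permutation p = 0.1, the smallest possible, and 0.133 adjusted over 4 pairs). Neither gene passed by itself, and a ratio of the extremes is no comparison of the clusters.

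**Figure D3:**
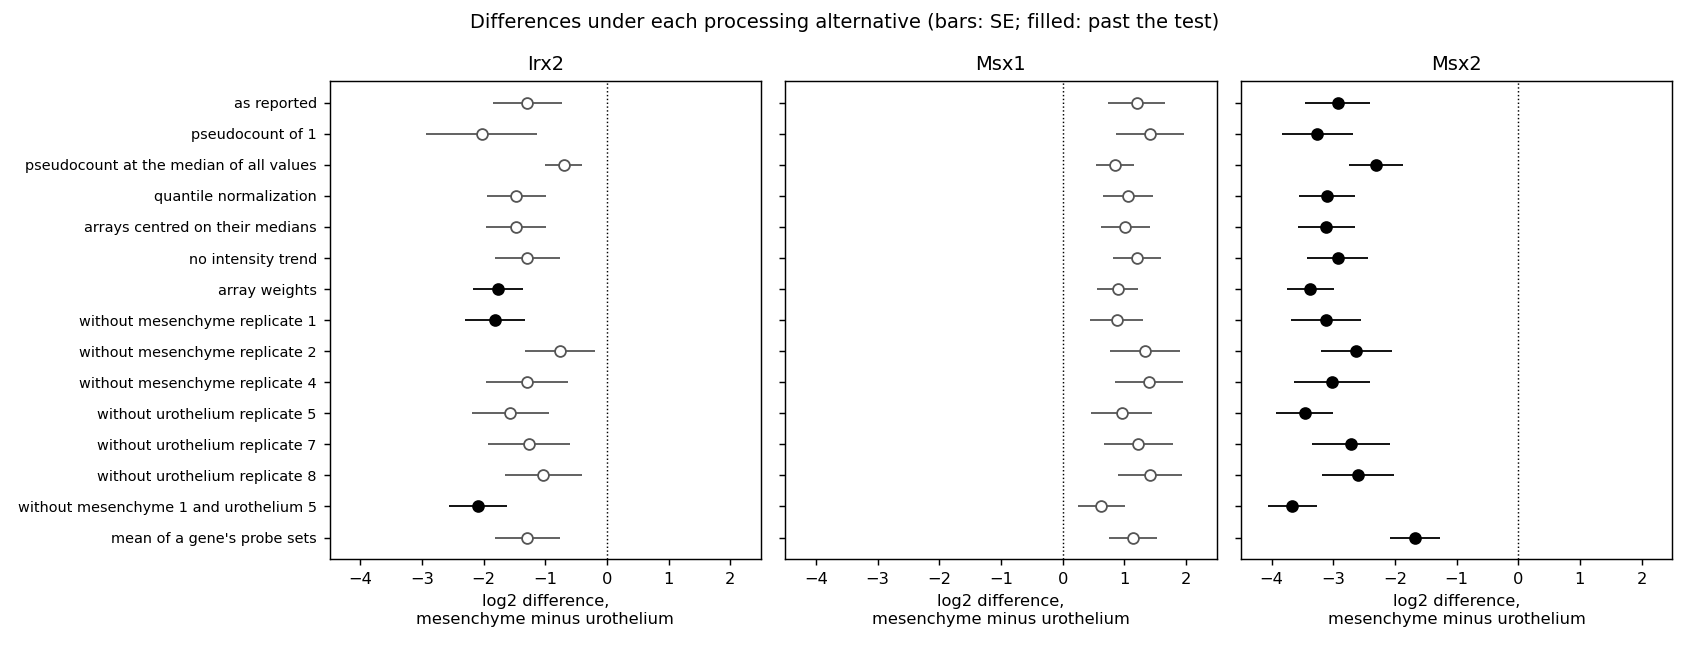
Log2 difference, mesenchyme minus urothelium, of Irx2, Msx1 and Msx2 as reported and under each alternative that gave a value. Points are estimates, bars the moderated SE, and filled points are past the test at the adjusted threshold. Msx2 is filled throughout, Msx1 nowhere, and Irx2 with array weights, without mesenchyme 1, and without mesenchyme 1 and urothelium 5.

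The genes whose pattern over the 6 arrays came closest to Msx2, by Euclidean distance between gene-centred log2 values, were Arfgef3 and Unc13b. Arfgef3, a gene of the guanine exchange factor family for ARF proteins, read 126, 41.7 and 64.3 in mesenchyme, against 487, 1367 and 1475 in urothelium (distance 0.50 log2 units). Unc13b, which encodes a vesicle priming factor, read 1058, 714 and 1215 in mesenchyme, against 4690, 8841 and 10563 in urothelium (distance 0.59). In both, as in Msx2, urothelium 5 was the lowest urothelium array and mesenchyme 2 the lowest mesenchyme array. Likeness to Msx2 is how these genes were picked, so it is no separate result. Over all probe sets, urothelium 5 was the lowest urothelium array for 48.7% and mesenchyme 2 the lowest mesenchyme array for 31.8%. The differences of Arfgef3 and Unc13b were −3.15 ± 0.51 and −2.91 ± 0.36. No other member passed, so none was matched in this way.

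Of 11 measured TALE genes outside the Irx family, 3 were higher in mesenchyme, 0 were higher in urothelium and 8 did not pass (median 0.65). This was 27.3% of the list past the test, where 14.7% of all genes passed. Mkx, a regulator of tendon genes, read 515, 523 and 375 in mesenchyme, against 58.6, 81.9 and 74.4 in urothelium, a difference of 2.14 ± 0.39 (limma adjusted p = 0.00324). Meis2 and Meis1, Hox cofactors, had mean signals of 26955 ± 3532 and 19017 ± 2973 in mesenchyme, against 6586 ± 1082 and 5334 ± 1287 in urothelium (SD, n = 3 each), with differences of 2.03 ± 0.25 and 1.84 ± 0.27 (limma adjusted p = 0.000235 and 0.000762). In the Irx branch of the class 0 of 6 genes passed by limma, where 14.7% of all genes did, and 1 (Irx2) had an unadjusted p under 0.05, where 24.98% of all genes had one.

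Of 41 measured NK-like homeobox genes other than Msx1 and Msx2, 2 were higher in mesenchyme and 0 in urothelium (median 0.19). This was 4.88% of the list, where 14.7% of all genes passed. The endothelial and hepatic factor gene Hhex had a mean of 2018 ± 556 in mesenchyme and 650 ± 244 in urothelium, a difference of 1.60 ± 0.39 (limma adjusted p = 0.0172). The difference of Nkx1-2 was 1.47 ± 0.40 (limma adjusted p = 0.0314). The mesenchyme count was 0 without urothelium 7, without urothelium 8 or after quantile normalization, and 1 without mesenchyme 2, after median centring or once dim genes were filtered out. Msx3, the remaining mouse Msx gene, read 57.8, 247 and 113 in mesenchyme, against 123, 225 and 167 in urothelium. The ranges overlapped and the difference was −0.34 ± 0.47 (limma adjusted p = 0.734). It was named after its values were seen.

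BMP ligands are inducers of Msx genes in other embryonic organs. In the BMP list of 26 measured genes, 6 passed as higher in mesenchyme and 3 as higher in urothelium (median 0.15). This was 34.6% of the list, where 14.7% of all genes passed, 8.91% higher in mesenchyme and 5.80% higher in urothelium. No list was tested as a set. The ligand genes Bmp4 and Bmp5 and the antagonist gene Fst differed most. Bmp4 read 4484, 6359 and 5923 in mesenchyme, against 296, 510 and 410 in urothelium, a difference of 3.66 ± 0.32 (limma adjusted p = 2.57e-05). Its sign was that of the Msx1 estimate and not that of Msx2, while Bmp2, given below, had the sign of Msx2. The ligand genes Bmp6 and Bmp7 did not pass (1.04 and −0.15, limma adjusted p = 0.204 and 0.835). The part of BMP ligands in the Msx values was not tested. The differences of Bmp5 and Fst were 3.44 ± 0.60 and 3.18 ± 0.47 (limma adjusted p = 0.00249 and 0.000830). The members higher in urothelium were the ligand gene Bmp2, at −1.62 ± 0.44, and the receptor genes Bmpr1b (−1.59 ± 0.39) and Acvr2a (−1.19 ± 0.28), all of them picked with their values known. Only 1 gene passed in that direction without mesenchyme 2, mesenchyme 4, urothelium 5 or urothelium 7, without both mesenchyme 1 and urothelium 5, and when probe sets were averaged.

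Genes beside the members on the chromosome were read as well, taking 3 protein-coding genes on each side of the clusters and of each Msx gene in RefSeq order. Of 24 such genes 20 were measured, of which 2 were higher in mesenchyme, 3 in urothelium and 15 did not pass (median 0.19). This was 25% of the measured genes past the test, where 14.7% of all genes passed. Beside Msx2, the nearest measured gene before it, Sptlc1, a subunit gene of sphingolipid synthesis, was higher in urothelium at −0.93 ± 0.24 (limma adjusted p = 0.0250). The next, the Wnt receptor gene Ror2, read 2403, 2118 and 2310 in mesenchyme, against 9326, 7063 and 8277 in urothelium, a difference of −1.82 ± 0.25. On the other side of Msx2 the immediate neighbour Drd1, a dopamine receptor gene, read 351, 156 and 123 in mesenchyme, against 20.5, 103 and 83.0 in urothelium. All mesenchyme arrays were above all urothelium arrays, at 1.14 ± 0.47, without passing (limma adjusted p = 0.157). Beyond it lay Sfxn1 (0.49) and Hrh2 (−0.31), not past either. Beside the IrxB cluster, Mmp2, a gelatinase gene, had a mean of 31687 ± 1610 in mesenchyme and 1511 ± 529 in urothelium (4.41 ± 0.31), while Aktip on the other side was higher in urothelium at −2.29 ± 0.46. Fto, the immediate neighbour of that cluster on the Aktip side, did not pass (0.36). Nsg1, which lies after Msx1, was higher in mesenchyme at 2.89 ± 0.28. The genes flanking the IrxA cluster did not pass.

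**Figure D4:**
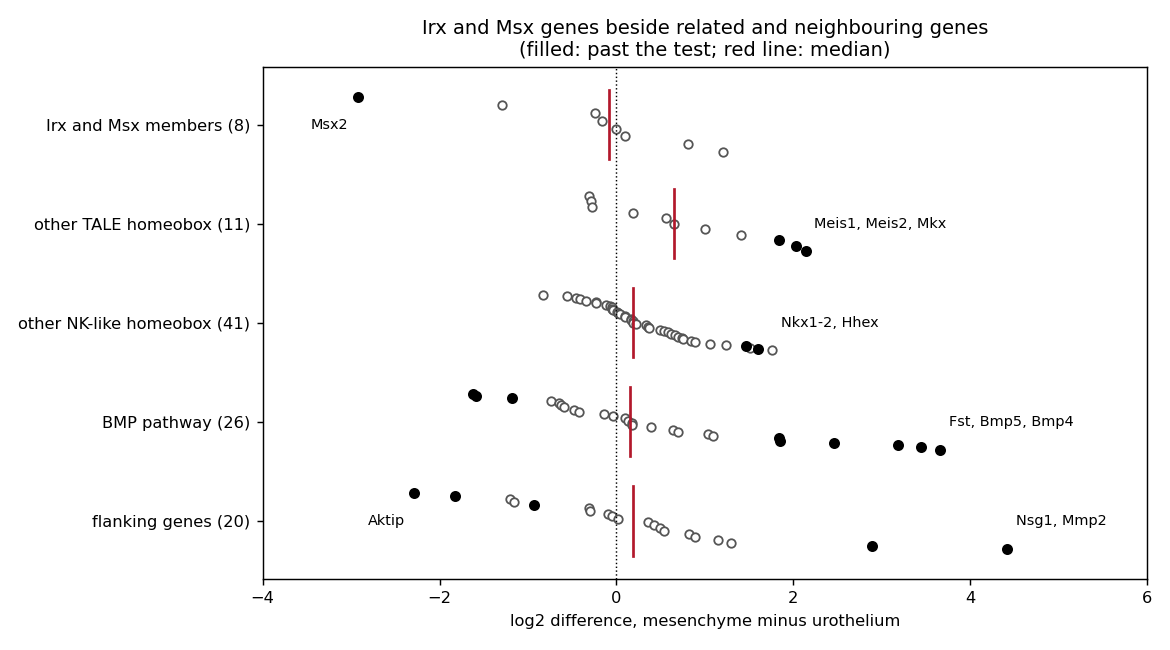
Log2 difference, mesenchyme minus urothelium, of the 8 Irx and Msx genes, 11 other TALE genes, 41 other NK-like genes, 26 BMP pathway genes and 20 flanking genes, each point a gene. Filled points are past the test, red lines are medians (−0.09, 0.65, 0.19, 0.15 and 0.19 from top to bottom), and labels name up to 3 genes with the largest differences past the test in each row.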

How the data were processed

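The authors deposited a linear intensity for each of 45101 probe sets, made with GCOS, Affymetrix's operating software, per the submitters' processing notes. GCOS settings were not given in the sources used here, nor was a genome build, a batch or a date. With 2% trimmed from each end, every array had a mean of 1500, so none was rescaled. The number of arrays limits the precision.

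Control probe sets (64) were left out. Probe sets were named by the platform annotation: 34945 had a single symbol, 932 several and 9160 none. Each of 18193 genes was read by its probe set of highest mean log2 value, and 45037 probe sets were also fitted by themselves. Values were log2(signal + 45), with 45 the 25th percentile of all values. The compartment effect was fitted with limma 3.58.1 in R 4.3.3 (lmFit, eBayes with an intensity trend), with Benjamini-Hochberg adjustment and a threshold of 0.05. The fit was also tried on simulated data with independent noise. That trial required recovery of large differences, not of ones as small as those of Irx2 and Msx1, and set no limit on false calls. Intervals come from the moderated SE. Exact permutation tests used SciPy 1.17.1.

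The members, gene lists and alternatives were chosen with earlier results of these data known. Named genes were all members, the 3 largest differences past the test per list, flanking genes past the test, Shh, Bmp4 and the 2 genes nearest in pattern to a member past the test. Krt5, Sox10, Erbb3, Ret, Fabp7, Krt19, Msx3, Bmp2, Bmp6, Bmp7, Bmpr1b, Acvr2a, Fto, Drd1, Sfxn1 and Hrh2 fall outside this rule and were named after their values were seen. Alternatives were the pseudocount, quantile normalization, median centring, a filter on dim genes, no trend, array weights, the mean of probe sets, and arrays left out. Sequences are RefSeq's.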

Additional observations from a re-analysis of the deposited data

How the results depend on the processing

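Msx2 kept its direction and its call in all 14 alternatives that gave it a value (−3.66 to −1.67, limma adjusted p 2.51e-05 to 0.0249; −3.47 to −2.59 with 1 array left out). With dim genes filtered out (mean log2 signal under the median) Msx2 was left out by the filter, and the count of members higher in urothelium was 0. That count was 2 with array weights and without mesenchyme 1 and urothelium 5, and 1 to 2 with 1 array left out, because Irx2 passed at −1.77, −2.09 and, without mesenchyme 1, −1.82. With 1 array left out Irx2 ranged from −1.82 to −0.76. Of the member probe sets, 2 were higher in urothelium with array weights. No alternative gave a member higher in mesenchyme. Signs turned, without a call, for Irx1 at a pseudocount of 179 (0.0130) and with 1 array left out (−0.40 to 0.29; 0.29 without mesenchyme 2, 0.08 without mesenchyme 4, 0.22 without urothelium 7), for Irx4 with arrays centred on their medians (−0.0891), for Irx5 (−0.61 to 0.28; 0.28 without mesenchyme 2, 0.14 without urothelium 8) and for Irx6 (−0.62 to 0.24; 0.24 without mesenchyme 2). The causes were not tested. Median centring moved the median gene from 0.11 to −0.08.

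Of the lists, BMP pathway genes higher in urothelium numbered 1 without mesenchyme 1 and urothelium 5 and in the mean of probe sets, and 1 to 2 with 1 array left out. NK-like genes higher in mesenchyme numbered 0 after quantile normalization, 1 with arrays centred on their medians, 1 with dim genes filtered out, 8 with array weights and 0 to 2 with 1 array left out; higher in urothelium, 2 with array weights and 1 without mesenchyme 1 and urothelium 5. With array weights 5 TALE genes and 5 flanking genes were higher in mesenchyme. The compartments share no replicate number, and the labels do not say whether any arrays came from the same bladder. A paired analysis was therefore not run. Irx4 on every array, Irx2 and Irx6 on mesenchyme 2, and Msx1 probe set 1417127_at on urothelium 8 lay under the 25th percentile of signal.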
